A study of Mus musculus with 24 samples.

Results

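The enzymes that write, copy and remove DNA methylation were examined in RNA-seq libraries of CGR8 cells, a mouse embryonic stem cell (ESC) line. The 9 genes were taken by symbol from a table of 54242 gene symbols: the maintenance pair Dnmt1 and Uhrf1, the de novo group Dnmt3a, Dnmt3b and Dnmt3l, the oxidising enzymes Tet1, Tet2 and Tet3, and the glycosylase Tdg. All 9 were listed and all 9 passed the filter on low values, with 16447 genes tested in all. The table holds log2(TPM + 1), that is, log2 of TPM, the transcript abundance scaled for transcript length and library total, with 1 added. TPM sums to the same total in every library, so sequencing depth is unknown and no counting error is given.

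DNA methyltransferases place a methyl group on cytosine, mostly where a guanine follows (CpG). UHRF1 binds the half-methylated CpG left by replication and brings DNMT1 to it, whereas DNMT3A and DNMT3B methylate bare CpG, helped in ESCs and germ cells by DNMT3L, which has no catalytic activity of its own. TET enzymes oxidise methylcytosine, and TDG cuts out the later oxidation products so that base excision repair can restore cytosine. ESCs are known for high de novo methyltransferase and TET1 levels, and they survive the loss of DNA methylation.

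The 24 libraries formed 8 groups of 3 independent replicates. Cells were transfected with a pool of non-targeting siRNAs (si-CTL) or of siRNAs against Rsl24d1 (si-Rsl24d1), a factor of large ribosomal subunit assembly, and were collected either as self-renewing ESCs in FBS and LIF (day 0) or after 4 days with 10 nM retinoic acid (RA) in FBS (day 4). Each combination was studied without rescue (labelled empty_vector, no doxycycline) and with rescue (labelled RSL24D1_OE, with doxycycline to induce an RSL24D1 transgene), so a rescue comparison joins the vector, the doxycycline and the transgene, whose parts cannot be told apart. The labels differ among themselves on collection (48 or 72 h after transfection) and on LIF during RA treatment, and the labels and the study's methods differ on the library kit (poly-A selected or total RNA), the tool versions and the genome build. No group spent 4 days without RA, so day 4 against day 0 joins RA with the time in culture and any change in LIF. These parts cannot be told apart, and an RA effect, an RA response or a change with RA below means all of them together.

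Rsl24d1 itself was measured first. At day 0 without rescue it was 148, 140 and 136 TPM in the si-CTL libraries and 36.6, 37.9 and 32.7 TPM in the si-Rsl24d1 libraries, a log2 difference of -1.95 ± 0.0699 (SE, limma, adjusted p = 3.2e-14). With rescue at day 0 the difference was -0.50 (adjusted p = 2.2e-05). At day 4 the libraries labelled si-Rsl24d1 held 89.3, 96.3 and 99.8 TPM against 95.9, 101 and 96.7 TPM in si-CTL, so the target was not measurably lower there (log2 difference -0.04, 95% confidence interval -0.19 to 0.11). The same held at day 4 with rescue (0.15, adjusted p = 0.19). Every day 4 siRNA comparison below therefore compares libraries by their labels, transfected before the RA treatment, with the target mRNA at control level when collected. In si-CTL cells Rsl24d1 averaged 151 TPM with rescue and 141 TPM without it at day 0, and 118 and 97.9 TPM at day 4.

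Several libraries differed by transcript length. Over genes whose longest transcript exceeds 9000 bases, the median deviation from the all-library mean was between -0.29 and 0.30 on the log2 scale, whereas over transcripts of up to 2000 bases it stayed between -0.04 and 0.05. Replicate 1 of day 0 si-CTL without rescue stood above the other 2 of its group (0.24 against 0.028 and -0.0045), replicate 1 of day 4 si-Rsl24d1 without rescue stood below its 2 partners (-0.08 against 0.30 and 0.25), and replicate 3 of day 0 si-Rsl24d1 with rescue stood above its own (-0.0048 against -0.23 and -0.21). The longest coding transcripts of the 9 genes run from 1822 bases (Dnmt3l) over 3502 (Tdg), 3586 (Uhrf1), 4320 (Dnmt3b), 5870 (Dnmt1), 9179 (Tet2), 9685 (Dnmt3a) and 10904 (Tet3) to 14369 bases (Tet1). For this reason each comparison of the 9 enzymes is also given with the trend over transcript length removed from every library wherever that changes a call. Counts for other gene lists are from the fit with the trend left in. Shares of all genes are from that fit too, and none was computed with the trend removed.

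On the GRCm38 build with the gencode vM21 annotation all 9 are protein-coding genes: Dnmt1 at chr9:20907209-20959888 (minus strand), Uhrf1 at chr17:56303321-56323486 (plus), Dnmt3a at chr12:3806007-3914443 (plus), Dnmt3b at chr2:153649450-153687730 (plus), Dnmt3l at chr10:78041947-78063622 (plus), Tet1 at chr10:62804570-62908996 (minus), Tet2 at chr3:133463679-133545139 (minus), Tet3 at chr6:83362373-83459084 (minus) and Tdg at chr10:82629828-82650799 (plus). Tdg values are uncertain, because the pseudogene Tdg-ps matches it at 98.7% over 2968 bases and was itself listed at 3.95 to 8.89 TPM. Uhrf1 has one such copy, Gm5648, which was listed at no more than 0.0421 TPM. Dnmt3l shares 67 exonic bases with Aire on the opposite strand (12.4 to 27.1 TPM).

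RefSeq promoter windows (GRCm38.p6, 250 bases before to 50 after an annotated start) were found for all 9 genes, with several starts for some. CpG content is the feature of these windows on which the enzymes themselves act. The median over all 32851 mouse windows was 7 CpG. The 4 windows below are shown because Dnmt3a and Dnmt3b moved in opposite directions on Rsl24d1 knockdown, Dnmt3l carried the smallest replicate spread, and Tet2 differed most between the siRNA groups at day 4. CpG dinucleotides are in capitals and all sequences read 5′ to 3′ on the gene's strand.
Dnmt3a, internal start, chr12:3891494-3891793, plus strand: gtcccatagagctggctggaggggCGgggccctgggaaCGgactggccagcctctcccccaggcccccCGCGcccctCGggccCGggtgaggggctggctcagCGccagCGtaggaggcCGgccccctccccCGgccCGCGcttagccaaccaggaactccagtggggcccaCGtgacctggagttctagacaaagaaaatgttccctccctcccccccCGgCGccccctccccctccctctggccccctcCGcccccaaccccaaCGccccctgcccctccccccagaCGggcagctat
Dnmt3b, chr2:153649199-153649498, plus strand: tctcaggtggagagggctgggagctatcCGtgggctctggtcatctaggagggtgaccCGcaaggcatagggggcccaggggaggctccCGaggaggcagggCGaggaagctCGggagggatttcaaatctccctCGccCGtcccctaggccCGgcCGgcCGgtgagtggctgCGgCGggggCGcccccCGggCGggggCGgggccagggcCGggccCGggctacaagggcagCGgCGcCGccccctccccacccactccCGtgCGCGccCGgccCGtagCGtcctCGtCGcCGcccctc
Dnmt3l, first start, chr10:78042037-78042336, plus strand: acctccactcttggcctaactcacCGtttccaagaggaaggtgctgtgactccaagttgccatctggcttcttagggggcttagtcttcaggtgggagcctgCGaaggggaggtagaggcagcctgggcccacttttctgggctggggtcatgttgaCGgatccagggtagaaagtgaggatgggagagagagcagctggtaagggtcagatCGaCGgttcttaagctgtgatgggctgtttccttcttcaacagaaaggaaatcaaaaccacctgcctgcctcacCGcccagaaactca
Tet2, chr3:133544341-133544640, minus strand: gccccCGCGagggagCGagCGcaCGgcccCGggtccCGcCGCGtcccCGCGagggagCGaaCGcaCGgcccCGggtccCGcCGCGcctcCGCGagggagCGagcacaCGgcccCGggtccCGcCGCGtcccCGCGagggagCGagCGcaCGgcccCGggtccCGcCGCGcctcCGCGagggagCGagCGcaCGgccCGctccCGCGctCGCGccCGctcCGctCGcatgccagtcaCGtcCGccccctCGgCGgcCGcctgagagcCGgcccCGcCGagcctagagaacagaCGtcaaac

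The Dnmt3a window holds 18 CpG, the Dnmt3b window 30, the Dnmt3l window 6 and the Tet2 window 57. The Dnmt3l window is near the middle of all windows, 43.6% of which hold fewer CpG, and the Tet2 window is CpG-dense (99.8% hold fewer). The 2 upstream Dnmt3a windows hold 46 and 47 CpG. Gene-level values do not tell which of the Dnmt3a starts was used. Both strands were searched for letter motifs: the direct repeats of retinoic acid receptors, AGGTCA given again after 2 bases (DR2) or 5 bases (DR5) of any kind, were in none of the 16 windows of the 9 genes and in 0.00913% of all windows each, and the E2F motif TTTGGCGC was in 1 Dnmt1 window and in 0.514% of all.

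**Figure D1:**
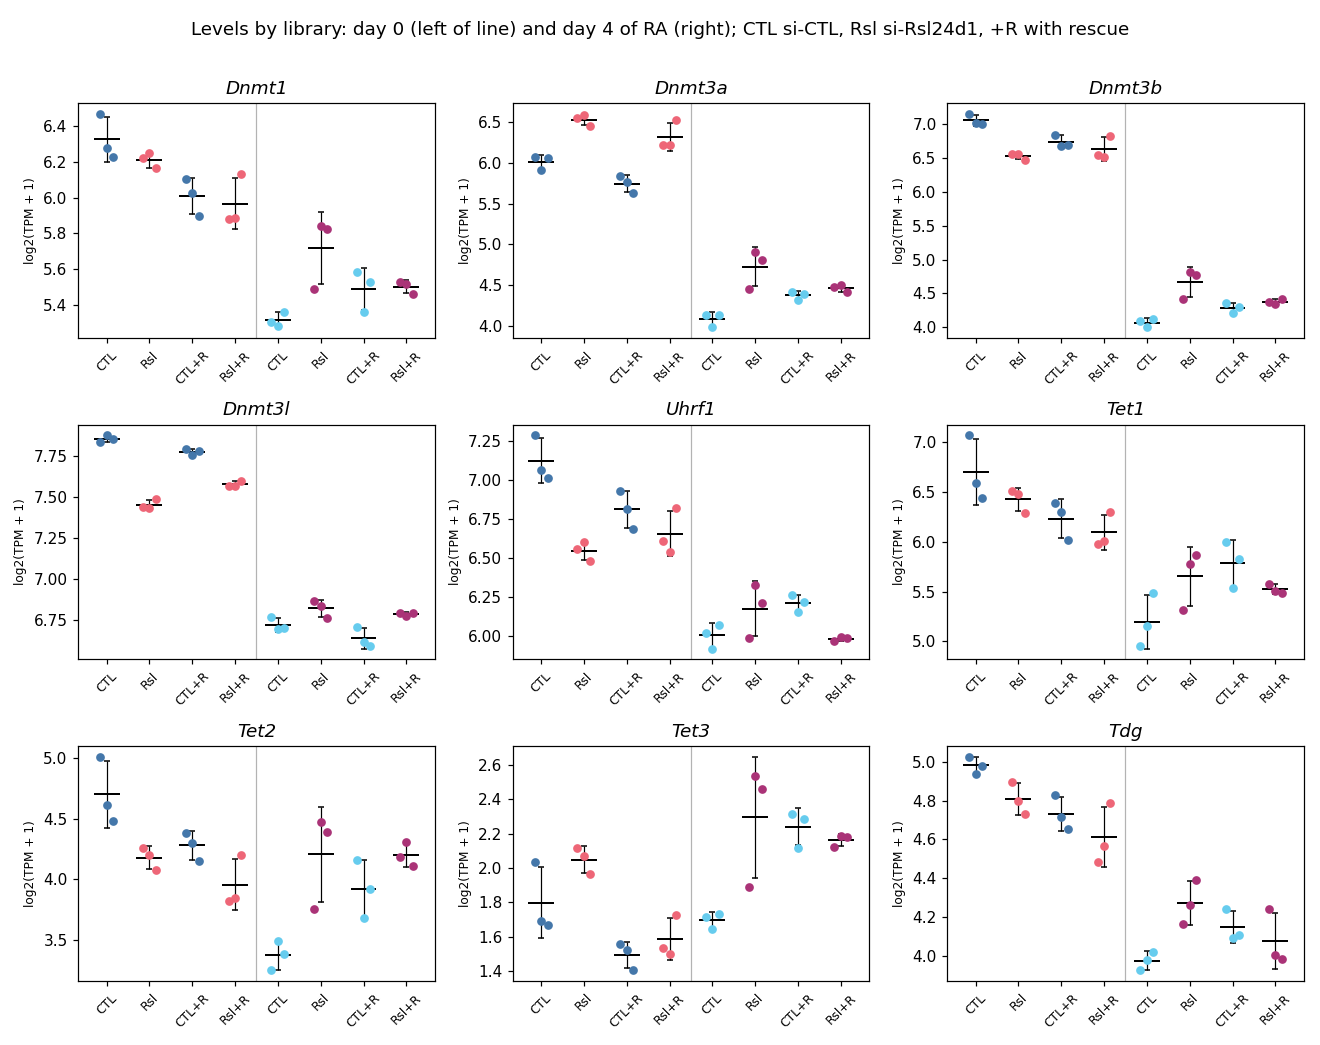
Level of each gene in log2(TPM + 1) by library (points, 3 per group), with the group mean (line) and SD (bar), at day 0 (left of the grey line) and day 4 of RA (right); the vertical axes do not start at 0. Dnmt3a and Dnmt3b show the largest distance between the days, and the day 0 Dnmt3a libraries of si-Rsl24d1 lie above those of si-CTL while the Dnmt3b libraries without rescue lie below.

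In self-renewing si-CTL cells without rescue Dnmt3l was the most abundant of the 9 (230 ± 3.45 TPM, SD, n = 3), followed by Uhrf1 (139 ± 14.4 TPM) and Dnmt3b (132 ± 7.89 TPM). Tet1 stood at 105 ± 24.9 TPM, Dnmt1 at 79.4 ± 7.20 TPM and Dnmt3a at 63.6 ± 3.82 TPM. Tdg reached 30.6 ± 0.964 TPM, Tet2 25.4 ± 5.22 TPM and Tet3 2.50 ± 0.521 TPM. TPM is scaled per length, so these levels are set side by side. The order of long against short genes is approximate, because libraries differed by transcript length, and the place of Tdg is uncertain. The neighbours Uhrf1 and Dnmt3b, Dnmt3b and Tet1, Tet1 and Dnmt1, and Tdg and Tet2 overlapped between libraries and are not ordered beyond their spread. At day 4 the order was Dnmt3l (104 TPM), Uhrf1 (63.1), Dnmt1 (38.9), Tet1 (36.1), Dnmt3a (16.0), Dnmt3b (15.8), Tdg (14.8), Tet2 (9.40) and Tet3 (2.24), with Dnmt1 overlapping Tet1, and Dnmt3a, Dnmt3b and Tdg overlapping one another.

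Between day 0 and day 4 of RA in si-CTL cells without rescue, 8 of the 9 genes fell, and the de novo enzymes fell furthest. Dnmt3b fell from 141, 129 and 127 TPM to 16.0, 15.0 and 16.4 TPM, a log2 difference of -2.99 ± 0.0891 (SE, limma, adjusted p = 5.7e-16) or 7.95-fold. Dnmt3a fell from 66.2, 59.2 and 65.4 TPM to 16.6, 14.8 and 16.6 TPM (-1.93 ± 0.0958, adjusted p = 9.9e-13). In both genes every day 4 library lay far below every day 0 library. Dnmt3l, the cofactor, was lower by less (227, 233 and 230 TPM against 108, 102 and 103 TPM, a difference of -1.13, adjusted p = 4.5e-16). The maintenance pair fell too. Dnmt1 went from 87.5, 76.7 and 73.9 TPM to 38.5, 38.0 and 40.2 TPM (-1.01, adjusted p = 4.7e-09), and Uhrf1 went from 155, 133 and 128 TPM to 63.8, 59.4 and 66.2 TPM (-1.12, adjusted p = 6.8e-10). Their libraries did not overlap between the days. Groups of 3 without overlap are common in these data. At day 4 without rescue, 37.1% of all genes had si-Rsl24d1 libraries above si-CTL with no overlap. The share for the other comparisons is not given, so a lack of overlap there is a description only.

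Among the demethylation enzymes, Tet1, the main TET of ESCs, fell from 133, 95.4 and 85.6 TPM to 29.9, 34.6 and 43.7 TPM (-1.50, adjusted p = 1.8e-07). Tet2, the TET without a CXXC domain, fell from 31.3, 23.5 and 21.3 TPM to 8.53, 10.3 and 9.41 TPM (-1.33, adjusted p = 6.3e-07). Tet3, best known from the oocyte and from neural cells, did not pass, with 3.10, 2.23 and 2.17 TPM at day 0 and 2.29, 2.12 and 2.32 TPM at day 4 (-0.10, 95% confidence interval -0.37 to 0.17). Tdg fell 2.01-fold, from 31.6, 29.7 and 30.6 TPM to 14.2, 14.8 and 15.3 TPM (adjusted p = 1.3e-09). All 8 also exceeded a 1.8-fold change. Over all 16447 genes, 36.7% passed with lower values (adjusted p under 0.01) and 8.24% also exceeded 1.8-fold downward. The median log2 difference of the 9 genes was -1.13 and that of all tested genes -0.10. With the length trend removed the same 8 fell (Tet1 by -1.14, Tet2 by -1.02), and Tet3 passed in the upward direction (0.23, adjusted p = 0.0021). In bulk RNA, fewer cells of one kind and less RNA per cell cannot be told apart.

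**Figure D2:**
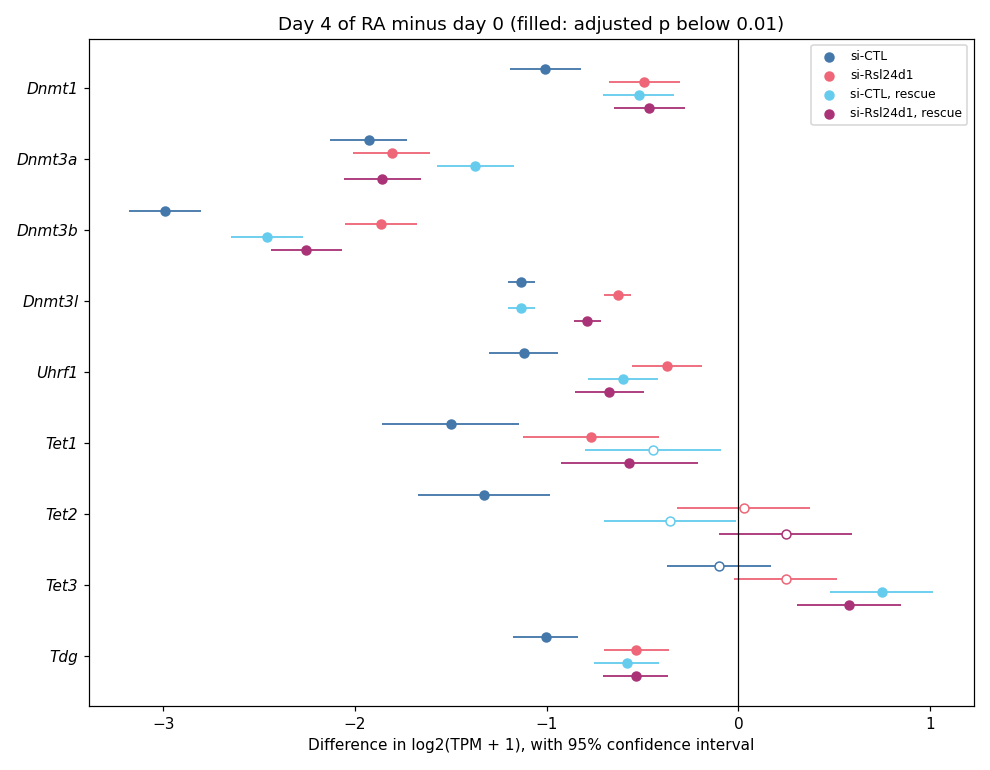
Difference between day 4 of RA and day 0 in log2(TPM + 1) (horizontal axis) for each gene, in 4 siRNA and rescue conditions, with 95% confidence intervals from limma; filled points have an adjusted p under 0.01. Dnmt3b runs from -2.99 to -1.86, Dnmt3a from -1.93 to -1.37, and Tet3 lies above 0 in the 3 conditions other than si-CTL without rescue.

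Dnmt1, Dnmt3a, Dnmt3b, Dnmt3l, Uhrf1 and Tdg were lower at day 4 in all 4 conditions. In libraries labelled si-Rsl24d1 without rescue 7 genes passed downward (26.4% of all genes did), and Dnmt3a (-1.81) and Dnmt3b (-1.86) exceeded 1.8-fold (6.22%). Tet2 was at 18.1, 17.4 and 15.9 TPM at day 0 and at 12.5, 21.2 and 20.0 TPM at day 4 in that condition (0.03, 95% confidence interval -0.32 to 0.37). Tet3 passed upward in that condition once the length trend was removed (0.22, adjusted p = 0.0024). In si-CTL cells with rescue, 6 genes were lower (22.4% of all genes) and Tet3 was higher (0.75, adjusted p = 3.8e-05, where 36.8% of all genes passed upward), while Tet1 (-0.44, adjusted p = 0.026) and Tet2 (-0.36, adjusted p = 0.062) did not pass. With the length trend removed Tet1 (-0.80) and Tet2 (-0.67) passed there too. In si-Rsl24d1 cells with rescue, 7 genes were lower (25.8%) and Tet3 was higher (0.58, adjusted p = 0.00057, 32.4% of all genes), and the Tet1 call (-0.57, adjusted p = 0.0061) was lost in 5 of the 6 fits without one of its libraries. Tet2 was 13.2, 13.4 and 17.3 TPM at day 0 and 17.2, 18.9 and 16.2 TPM at day 4 (0.25, adjusted p = 0.20).

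Knockdown of Rsl24d1 in self-renewing cells without rescue changed the de novo enzymes in opposite directions. Dnmt3a rose from 66.2, 59.2 and 65.4 TPM to 92.4, 95.5 and 86.8 TPM (0.52 ± 0.0958 on the log2 scale, SE, limma, adjusted p = 0.00019). Dnmt3b fell from 141, 129 and 127 TPM to 93.4, 93.1 and 88.0 TPM (-0.53 ± 0.0891, adjusted p = 7.8e-05). For each gene the si-Rsl24d1 libraries did not overlap the si-CTL libraries, although the share of all genes without overlap is not given for this comparison. Dnmt3l fell from 227, 233 and 230 TPM to 172, 171 and 178 TPM (-0.40, adjusted p = 6.9e-09), and Uhrf1 fell from 155, 133 and 128 TPM to 93.3, 95.9 and 88.4 TPM (-0.58, adjusted p = 1.9e-05), again without overlap. Thus 4 of 9 genes passed, where 30.4% of all genes passed, and none exceeded 1.8-fold (4.18% of all genes did).

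Its partner Dnmt1 did not pass, at 73.5, 75.0 and 70.7 TPM after knockdown against 87.5, 76.7 and 73.9 TPM (-0.11, 95% confidence interval -0.30 to 0.07). Tet1 was 90.0, 87.7 and 77.0 TPM against 133, 95.4 and 85.6 TPM (-0.27, adjusted p = 0.21), and the single library at 133 TPM is the one that stood apart for long transcripts. Tet2 lay below si-CTL in all 3 libraries (18.1, 17.4 and 15.9 TPM against 31.3, 23.5 and 21.3 TPM) but missed the threshold (-0.52, adjusted p = 0.015). It passed without si-CTL replicate 3 (-0.63). Without si-CTL replicate 1, the library that stood apart for long transcripts, the Tet2 difference was smallest (-0.37) and did not pass. Tet3 was 3.33, 3.20 and 2.90 TPM against 3.10, 2.23 and 2.17 TPM (0.25, adjusted p = 0.13), and Tdg was 28.8, 26.8 and 25.5 TPM against 31.6, 29.7 and 30.6 TPM (-0.17, adjusted p = 0.094). Median log2 differences in this comparison were near 0 for every length class (-0.02 up to 2000 bases, 0.03 over 9000). Removing the length trend left the 4 calls in place and added Dnmt1 (-0.14, adjusted p = 0.00076), Tet1 (-0.34, adjusted p = 0.0040), Tet2 (-0.57, adjusted p = 5.6e-05) and Tet3 (0.20, adjusted p = 0.0094), leaving Tdg as the 1 gene that did not pass. The share of all genes that passed with the trend removed was not computed, so this larger count is not particular to the enzymes as far as is known.

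**Figure D3:**
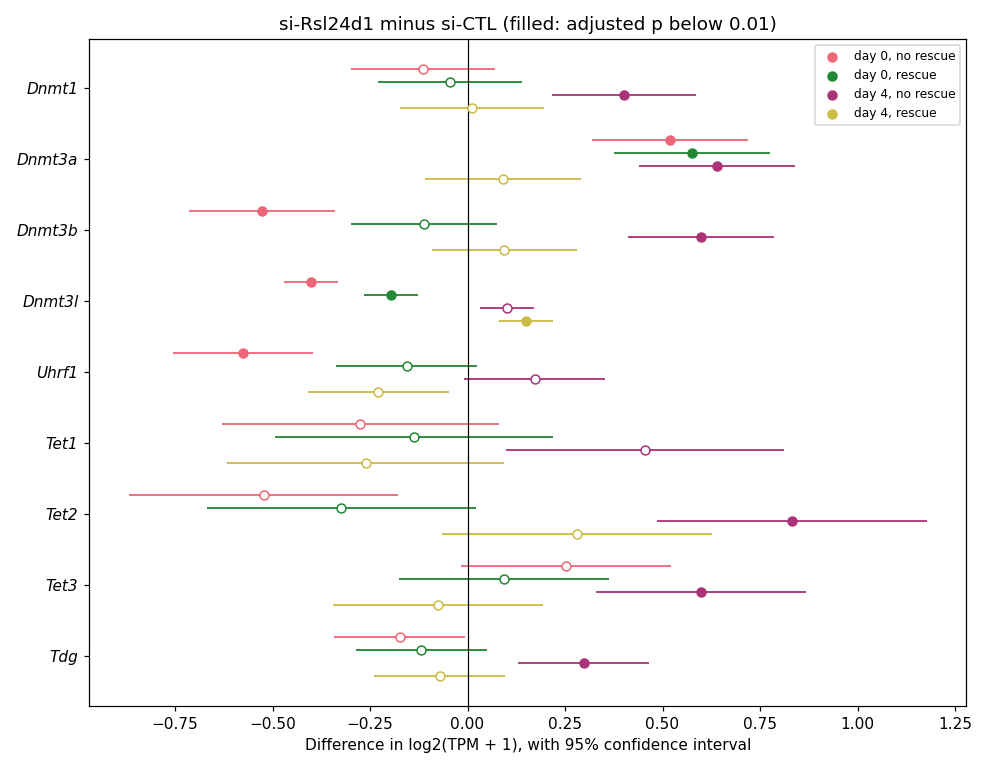
Difference between si-Rsl24d1 and si-CTL libraries in log2(TPM + 1) (horizontal axis) at day 0 and day 4, without and with rescue, with 95% confidence intervals from limma; filled points have an adjusted p under 0.01. Dnmt3a is above 0 in both day 0 comparisons, Dnmt3b and Uhrf1 are below 0 without rescue at day 0, and at day 4 without rescue all 9 points lie above 0.

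With rescue at day 0, Dnmt3a was still higher in si-Rsl24d1 (73.7, 73.3 and 90.8 TPM) than in si-CTL cells (56.3, 53.3 and 48.4 TPM, 0.58, adjusted p = 0.00017), and Dnmt3l was still lower (189, 188 and 193 TPM against 220, 214 and 218 TPM, -0.20, adjusted p = 0.00021). No library of one group overlapped the other for these genes, again without a share of all genes beside it. Dnmt3b was 92.0, 91.0 and 113 TPM against 114, 102 and 103 TPM and overlapped (-0.11, 95% confidence interval -0.30 to 0.07). Uhrf1 overlapped too, at 96.4, 92.0 and 112 TPM against 121, 112 and 102 TPM (-0.16, 95% confidence interval -0.34 to 0.02). These were 2 of 9 genes, where 13.7% of all genes passed. Both calls held without replicate 3 of si-Rsl24d1, the library that stood apart for long transcripts (Dnmt3a 0.48, Dnmt3l -0.21), and both were lost in a fit of the compared groups alone (adjusted p = 0.014 each). With the length trend removed Uhrf1 (-0.18, adjusted p = 0.0071) and Tet2 (-0.38, adjusted p = 0.0046) passed as well. Whether the knockdown response differs with rescue was tested as an interaction, in which none of the 9 passed, where 2.09% of all genes did. At an unadjusted p under 0.05 (limma) were Dnmt3b, Dnmt3l and Uhrf1, and the share of all genes at that level was not computed. The differences of differences were 0.42 for Dnmt3b (adjusted p = 0.062), 0.42 for Uhrf1 (adjusted p = 0.050) and 0.21 for Dnmt3l (adjusted p = 0.013), all towards a smaller siRNA difference, and 0.06 for Dnmt3a (95% confidence interval -0.23 to 0.34). With the length trend removed Dnmt3b (0.39, adjusted p = 0.00063) and Uhrf1 (0.39, adjusted p = 0.0011) passed. Between cells with and without rescue, si-CTL means were lower for Dnmt3b and Uhrf1 (-0.31 each), and si-Rsl24d1 means were higher (0.10 and 0.11). After length removal these values were -0.13 and -0.15 in si-CTL, and 0.27 and 0.25 in si-Rsl24d1.

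The balance of the de novo pair does not depend on a factor that scales a whole library, because both values come from the same library, although their longest transcripts differ in length (9685 and 4320 bases). Dnmt3a made up 32.5% ± 1.35 (SD, n = 3) of the summed Dnmt3a and Dnmt3b TPM in day 0 si-CTL cells and 49.7% to 50.6% in the 3 knockdown libraries. With rescue the shares were 33.1% ± 1.22 and 44.6% ± 0.0639. At day 4 they were 50.3% to 51.6% in all 4 groups. An exact permutation of the siRNA labels within the rescue groups (400 arrangements, two-sided) gave p = 0.005 at day 0 for a mean log2 ratio difference of 0.88, which is the smallest p it can give, and p = 0.54 at day 4 (0.02). Without rescue the day 0 difference was 1.06 and with rescue 0.70. This ratio was chosen after its values were seen, and the shares and the permutation use TPM with the length trend left in. With that trend removed, the siRNA differences without rescue were 0.26 for Dnmt3a and 0.38 for Dnmt3b at day 4. At day 0 they were 0.47 and -0.54. The summed Dnmt3a and Dnmt3b TPM were 196 ± 10.3 in si-CTL and 183 ± 7.30 after knockdown at day 0, and 31.8 ± 1.73 at day 4 in si-CTL.

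**Figure D4:**
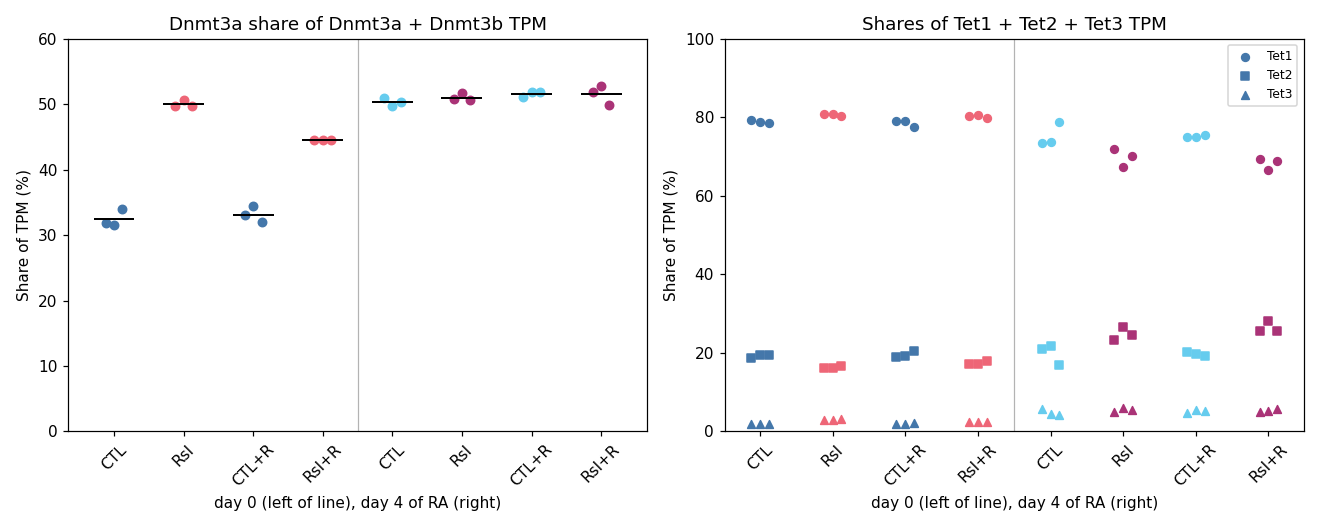
Dnmt3a share of the summed Dnmt3a and Dnmt3b TPM (left; lines are group means) and shares of Tet1, Tet2 and Tet3 in their summed TPM (right), per library in percent, with colours for day and siRNA as in the plot of levels by library. The Dnmt3a share rises from 32.5% to between 49.7% and 50.6% with knockdown at day 0 and lies near 51% in all day 4 groups, and Tet2 takes a larger share in the day 4 libraries labelled si-Rsl24d1.

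Within the TET family Tet1 held 78.9% ± 0.504 of the summed TPM in day 0 si-CTL cells, Tet2 19.2% ± 0.454 and Tet3 1.89% ± 0.0831. After knockdown Tet2 held 16.3% ± 0.249 and Tet3 2.99% ± 0.0377, with no overlap between libraries. At day 4 the Tet2 share was 19.9% ± 2.57 in si-CTL and 24.7% ± 1.72 in si-Rsl24d1 without rescue, and 19.7% ± 0.501 and 26.4% ± 1.53 with rescue. The day 4 shares of Tet2 did not overlap between siRNA groups either. These shares are a description, without a test.

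At day 4 without rescue, all 9 genes had higher means in libraries labelled si-Rsl24d1, and 6 passed, where 24.9% of all genes passed upward. Dnmt3a was 20.9, 29.0 and 27.0 TPM against 16.6, 14.8 and 16.6 TPM (0.64, adjusted p = 4.5e-05). Dnmt3b was 20.3, 27.2 and 26.2 TPM against 16.0, 15.0 and 16.4 TPM (0.60, adjusted p = 4.3e-05), so both de novo enzymes moved the same way. Tet2 was 12.5, 21.2 and 20.0 TPM against 8.53, 10.3 and 9.41 TPM (0.83, adjusted p = 0.00058). Tet3 was at 1.89, 2.54 and 2.46 against 1.72, 1.64 and 1.73 in log2(TPM + 1) (0.60, adjusted p = 0.0011). Dnmt1 was 43.9, 56.4 and 55.6 TPM against 38.5, 38.0 and 40.2 TPM (0.40, adjusted p = 0.0013), and Tdg was 17.0, 18.2 and 20.0 TPM against 14.2, 14.8 and 15.3 TPM (0.30, adjusted p = 0.0058). In each of the 6 the groups did not overlap (37.1% of all genes had no overlap in this direction), and replicate 1 of si-Rsl24d1 was the lowest of its group.

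Dnmt3l (0.10, adjusted p = 0.018), Uhrf1 (0.17, adjusted p = 0.11) and Tet1 (0.46, adjusted p = 0.035) did not pass. All tested genes rose by a median of 0.13 in this comparison, from -0.02 for transcripts up to 2000 bases to 0.40 over 9000 bases. With the length trend removed 4 genes passed at smaller sizes, namely Dnmt1 (0.11), Dnmt3a (0.26), Dnmt3b (0.38) and Tet2 (0.46), and Tet3 (0.19, adjusted p = 0.015) and Tdg (0.13, adjusted p = 0.097) did not. Leaving out replicate 2 of si-Rsl24d1 left 3 genes past the threshold, and leaving out its replicate 1 gave 7. In a fit of the compared groups alone none of the 6 passed (adjusted p = 0.014 for Dnmt3a and Dnmt3b to 0.043 for Tet3, limma, all at an unadjusted p under 0.05). In the fit of all groups Dnmt3a, Dnmt3b and Tet2 passed with any 1 library left out, whereas Dnmt1 was lost without replicate 2 or 3 of si-Rsl24d1, Tet3 without its replicate 2, and Tdg without replicate 1 or 2 of si-CTL or replicate 2 or 3 of si-Rsl24d1. With rescue at day 4, 1 gene passed, Dnmt3l (110, 109 and 110 TPM against 104, 97.2 and 95.3 TPM, 0.15, adjusted p = 0.0052), where 5.87% of all genes did. It no longer passed in 5 of the 6 fits that leave out one of these libraries.

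**Figure D5:**
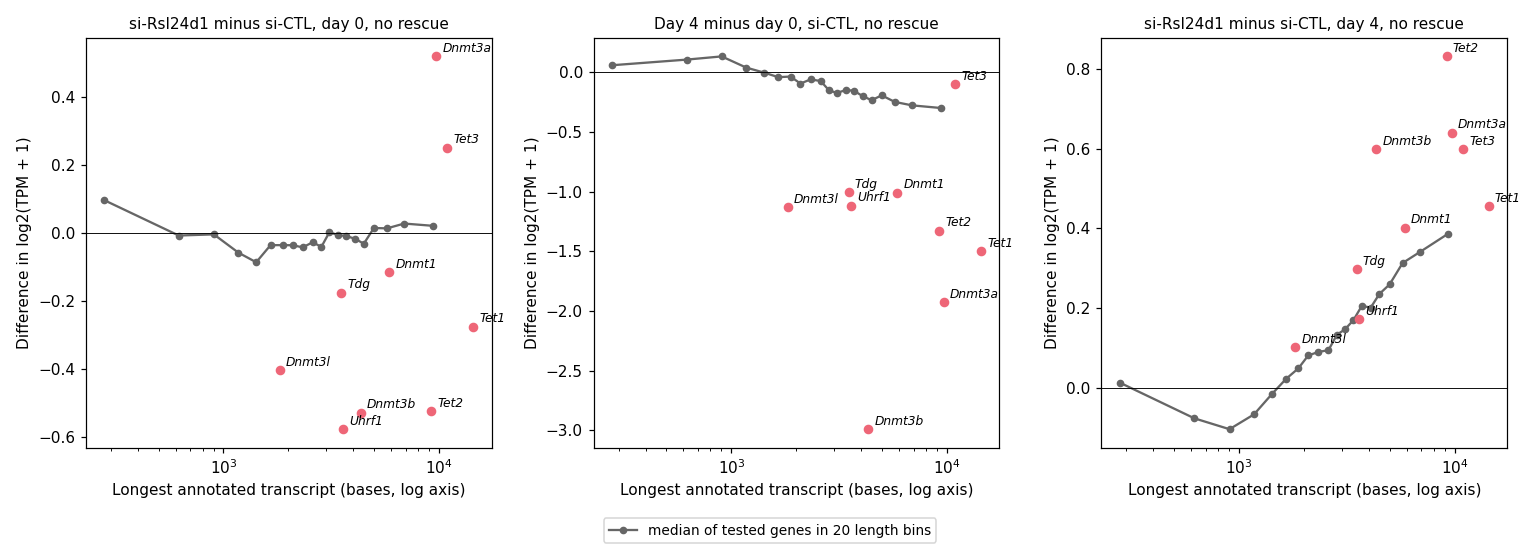
Differences in log2(TPM + 1) against the longest annotated transcript of a gene in bases (log axis) without rescue: knockdown at day 0 (left), RA in si-CTL (middle) and si-Rsl24d1 against si-CTL at day 4 (right); the grey line joins the medians of all tested genes in 20 length bins and the red points are the 9 genes. The grey line is near 0 at day 0 for knockdown, falls with length for RA and climbs with length at day 4, where Dnmt3b, Tet2 and Dnmt3a lie above it and Uhrf1 and Dnmt3l lie on or close to it.

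The effect of rescue within an siRNA group depended on the scaling. In si-Rsl24d1 cells at day 0, Rsl24d1 rose by 1.55 on the log2 scale, and of the 9 only Dnmt3l passed (189, 188 and 193 TPM with and 172, 171 and 178 TPM without rescue; 0.13, adjusted p = 0.0084), where 15.3% of all genes passed, and this call was lost in 5 of the 6 fits without one of the libraries. Dnmt3b (0.10, adjusted p = 0.41) and Uhrf1 (0.11, adjusted p = 0.35) passed there with the length trend removed (0.27, adjusted p = 0.00033, and 0.25, adjusted p = 0.0012) and by median-of-ratios scaling (0.23, adjusted p = 0.0069, and 0.24, adjusted p = 0.0032), both being higher with rescue. Dnmt3a was 73.7, 73.3 and 90.8 TPM with and 92.4, 95.5 and 86.8 TPM without rescue (-0.21, adjusted p = 0.098), a difference that did not pass, with 1 rescue library inside the range of those without it. In si-CTL cells at day 0 all 9 means were lower with rescue (-0.47 for Tet1 to -0.08 for Dnmt3l), but none passed, where 0.0122% of all genes did. At an unadjusted p under 0.05 (limma) it was 9 of 9, and the share of all genes at that level was not computed. All tested genes moved by a median of -0.12 there. At day 4 Tet3 was higher with rescue in si-CTL cells (3.98, 3.33 and 3.88 TPM against 2.29, 2.12 and 2.32 TPM, 0.54, adjusted p = 0.0065, where 10.2% of all genes passed). This did not hold with the length trend removed (0.18, adjusted p = 0.049) or in 5 of the 6 fits without one of the libraries. In si-Rsl24d1 cells at day 4 none of the 9 passed by limma, where 5.17% of all genes did. At an unadjusted p under 0.05 it was 5 of 9, again without a share of all genes at that level. Length removal let Dnmt1 (-0.13, adjusted p = 0.0083) and Dnmt3b (-0.21, adjusted p = 0.0053) pass in si-Rsl24d1 cells at day 4. Differences between siRNA effects at the 2 days passed for 6 genes without rescue (22.1% of all genes passed upward) and for 1 gene, Dnmt3l, with rescue (9.95%), where length removal added Dnmt3a (-0.38), Dnmt3b (0.29) and Tet2 (0.71). The RA response in si-CTL differed with rescue for 8 genes (27.1% upward), and none of the 9 passed with the length trend removed (limma, smallest adjusted p = 0.044). By median-of-ratios scaling Tet1, Tet2 and Tet3 still passed upward. Dnmt3l, not among the 8, then passed downward (-0.28, adjusted p = 0.0057). The comparisons share groups, so their values are not independent of each other.

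Counts for the lists and markers that follow are from the fit with the length trend left in. In that fit 36.7% of all genes fell and 24.1% rose with RA in si-CTL, and 16.1% fell and 14.3% rose with knockdown at day 0. Around the enzymes, 21 genes that guide or modulate them were counted, of which 12 fell and 4 rose with RA in si-CTL, and 11 fell and 2 rose with knockdown at day 0. Lower with RA were Cxxc1 (-1.17), a CpG-binding subunit of H3K4 methyltransferases, Trim28 (-1.03), the corepressor of KRAB zinc finger proteins, and Ehmt2 (2.00-fold), the H3K9 methyltransferase G9a. Higher with RA were Dppa3 (2.05), which keeps UHRF1 from chromatin, Prdm14 (0.62), which represses de novo methyltransferase genes, and Trdmt1 (0.58), a tRNA methyltransferase. Knockdown at day 0 lowered Prdm14 (-0.73), Zfp57 (-0.69), which protects imprinted methylation, and Ehmt2 (-0.51), and it raised Cxxc4 (1.17), a TET2 partner, and Trdmt1 (0.64). All named values passed an adjusted p under 0.01 by limma. The median over the list was -0.28 with RA and -0.20 with knockdown.

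Methyl-CpG readers were mixed: of 8, 3 rose and 2 fell with RA, led by Zbtb4 (0.91) and Mbd3 (-1.20), and 1 rose (Zbtb33, 0.58) and 1 fell (Mbd3, -0.27) with knockdown. Base excision repair genes were split evenly, 3 up and 3 down of 12 with RA and 4 up and 4 down with knockdown. Gadd45g, a stress-response gene linked to active demethylation, rose with knockdown (1.70) and Parp1 fell in both (-0.69 with RA, -0.40 with knockdown). Of 10 genes of the S-adenosylmethionine cycle, which supplies the methyl group, 5 fell and 1 rose with RA (Mat2a, the synthetase, by -0.96 and Bhmt by 0.87) and 3 fell and none rose with knockdown (among them Gnmt by -0.71 and Mtap by -0.25).

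Of the germline genes whose promoter CpG islands are methylated in somatic cells, 14 of 15 rose with RA (median 0.74; Dazl 3.40, Tuba3a 1.93, Tex101 1.46), while 3 rose and 3 fell with knockdown at day 0. Their summed level was 143 to 151 TPM at day 0 and 305 to 333 TPM at day 4 in si-CTL. DNA methylation itself was not measured. DNA replication genes, among which UHRF1 and DNMT1 act, fell in 16 of 20 with RA (1 rose; median -0.44; Cdt1 -1.04, Chaf1a -1.02, Mcm5 -0.89) and in 15 of 20 with knockdown (none rose; median -0.30; Gins2 -0.54, Cdt1 -0.51, Mcm6 -0.48).

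Marker genes moved alongside. Pluripotency markers fell in 9 of 10 with RA (summed level 2694 to 2758 TPM at day 0 and 1705 to 1821 TPM at day 4; Nanog rose by 0.79) and in 8 of 10 with knockdown (1914 to 1963 TPM), none of them at 0. Markers of the post-implantation epiblast, in which de novo methyltransferases are high, rose in 5 of 7 with knockdown (91.5 to 94.0 TPM in si-CTL and 135 to 143 TPM after it; Sall2 1.35, Fgf5 0.94, Pou3f1 0.92) and fell in 5 of 7 with RA (51.0 to 52.1 TPM; Fgf15 -2.08). Summed endoderm markers in si-CTL without rescue were at 11.8 to 14.9 TPM at day 0 and 18.9 to 24.7 TPM at day 4. Neural ectoderm markers were at 34.2 to 42.4 TPM and 37.7 to 40.6 TPM, and mesoderm markers at 31.6 to 33.6 TPM and 12.0 to 12.3 TPM. Fibroblast markers rose in 5 of 6 tested with RA (37.3 to 46.7 TPM to 92.7 to 101 TPM, Col3a1 2.53), and 3 of 6 were higher at day 4 in libraries labelled si-Rsl24d1 without rescue (174 to 242 TPM). In that comparison, where 24.9% of all genes passed upward, all 5 tested endoderm markers passed higher (18.9 to 24.7 TPM in si-CTL and 38.3 to 50.5 TPM in si-Rsl24d1, median 0.87). Of the neural ectoderm markers 3 of 5 tested passed higher (37.7 to 40.6 TPM and 53.6 to 71.9 TPM). Of the mesoderm markers 2 of 7 tested did (12.0 to 12.3 TPM and 21.4 to 25.2 TPM), which is near the share of all genes. The summed levels cover all listed genes, whereas the counts cover those tested. The part of other cell states in the enzymes' differences was not tested.

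The genes with the group means most like those of an enzyme over the 8 groups (smallest root-mean-square difference of centred means, for genes spanning at least 1 log2 unit) were Slc7a7 for Dnmt3a (0.113), Rarg, a retinoic acid receptor, for Dnmt3b (0.112), Acsbg3 for Dnmt3l (0.0430), Pabpc4 for Uhrf1 (0.0626), Maco1 for Dnmt1 (0.0361), Pfas for Tet1 (0.0646), Resf1 for Tet2 (0.122) and Nat10 for Tdg (0.0332). The second neighbour of Uhrf1 was Cdt1 (0.0642). Tet3 spanned 0.80 and was not searched.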

How the data were processed

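RNA-seq of 24 libraries (8 groups of 3) was used. Per the labels the reads were processed with STAR 2.7.8a and Salmon 1.4.0 and the build GRCh38 is named, whereas the study's methods give other versions and the mouse build GRCm38, and this conflict remains. The authors deposited gene-level log2(TPM + 1) values, without counts. Library depth is therefore unknown and no count model could be run. Groups came from the sample titles. TPM was recovered by reversing the logarithm with the pseudocount of 1.

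Fitting used genes averaging at least 0.5 in log2(TPM + 1), and was done by limma 3.58.1 (R 4.3.3; intensity trend, 8 group means, 16 residual degrees of freedom). Two-sided p-values were adjusted by Benjamini-Hochberg over all tested genes within each comparison. A gene passed at an adjusted p under 0.01, and a 1.8-fold change was noted besides. The 12 pairwise and 4 interaction contrasts share samples, and the siRNA by day interaction with rescue and the RA by rescue interaction were added after the data had been seen. An exact permutation of 3 against 3 cannot go below p = 0.1. The step was tested on simulated data. Transcript lengths were known for 98.03% of the tested genes. Near-identical transcripts were sought with blastn 2.17.0.

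The members and gene lists were chosen with earlier results of these data known. The named genes are the 9 enzymes, Rsl24d1, up to 3 genes a direction with the largest change per list in the knockdown comparison at day 0 and the RA comparison in si-CTL, and the 3 most alike per enzyme, with 1 gene of these not reported here. Replicate numbers did not pair the samples: residual correlations averaged -0.0173 over 84 pairs with the same number (4 over 0.1) and 0.00865 over 168 pairs with different numbers. No libraries were identical (highest correlation 0.991). Alternatives were another pseudocount, other filters, median-of-ratios scaling, the replicate block, a fit of the compared groups alone, each library left out and, chosen after seeing the data, removal of the transcript-length trend.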

Additional observations from a re-analysis of the deposited data

Results flagged for a closer look

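Differences between conditions were tested as interactions in limma, and those that passed (adjusted p under 0.01) were as follows. Without rescue, the si-Rsl24d1 minus si-CTL difference was higher at day 4 than at day 0, on the log2 scale, by 1.35 for Tet2 (adjusted p = 0.00013), 1.13 for Dnmt3b (9.5e-07), 0.75 for Uhrf1 (7.2e-05), 0.52 for Dnmt1 (0.0025), 0.50 for Dnmt3l (8.3e-08) and 0.47 for Tdg (0.0025). For Dnmt3b and Tet2 the siRNA groups lay in opposite orders at the 2 days, with no overlap between libraries at either. The Tet2 difference at day 0 did not pass by itself (-0.52, adjusted p = 0.015), and it was -0.37 without si-CTL replicate 1. In a fit of the compared groups alone the day 4 differences of both genes did not pass. Rsl24d1 mRNA was reduced at day 0 and not at day 4 in these libraries. All 6 passed also with the length trend removed (Tet2 1.03, Dnmt3b 0.92, Uhrf1 0.58, Dnmt3l 0.43, Tdg 0.30, Dnmt1 0.26). With rescue the same interaction passed for Dnmt3l, by 0.35 (adjusted p = 2.8e-05).

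The response to RA in si-CTL cells was shifted upward with rescue, relative to that without it, by 1.06 for Tet1, 0.97 for Tet2, 0.85 for Tet3, 0.56 for Dnmt3a, 0.53 for Dnmt3b, 0.52 for Uhrf1, 0.49 for Dnmt1 and 0.42 for Tdg (adjusted p = 0.0015 to 0.0061). All tested genes moved by a median of 0.21 in this contrast, -0.01 for transcripts up to 2000 bases and 0.65 over 9000 bases, and with the length trend removed none of the 9 passed (limma, smallest adjusted p = 0.044, for Uhrf1). Without replicate 1 of day 0 si-CTL without rescue 3 of the 9 passed. The part of the library differences by length in these values was not tested further.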

How the results depend on the processing

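Of the comparisons of single enzymes with alternatives, 961 kept their direction and side of the threshold, 82 lost the threshold, 8 gained it and 5 reversed. Counts for the other gene lists stayed within 1.5 times in 2489 comparisons with an alternative and moved further in 487. No share of all genes was computed under the alternatives. The 4 RA counts (8, 7, 7 and 8 of 9) and the siRNA by day interaction without rescue (6; 6 to 8 with a library left out) stayed within 1.5 times under every alternative run. The other counts of enzymes that passed depended on the setting. Knockdown at day 0 without rescue: 4, with 8 after removal of the length trend and 4 to 5 with a library left out. With rescue: 2, with 4 after length removal and 0 in a fit of the compared groups alone (2 with any library left out). Day 4 without rescue: 6, with 0 in the fit of the compared groups and 3 (without si-Rsl24d1 replicate 2) to 7. Day 4 with rescue: 1, with 0 by median-of-ratios scaling and in the fit of the compared groups, and 0 to 1 with a library left out (0 without si-CTL replicate 2 or 3 or any si-Rsl24d1 replicate). Rescue in si-Rsl24d1 at day 0: 1, with 2 at a pseudocount of 0.1 and at a filter of 1.5, 0 with no filter, 0 with the replicate block, 0 in the fit of the compared groups, 3 by median-of-ratios scaling, 3 after length removal, 3 at an adjusted p under 0.05, and 0 to 1 with a library left out (0 without replicate 1 or 2 of either group). Rescue in si-CTL at day 0: 0, with 5 at an adjusted p under 0.05. Rescue in si-Rsl24d1 at day 4: 0, with 2 after length removal, 1 at 0.05, and 3 without replicate 1 of the group without rescue (0 to 3). Rescue in si-CTL at day 4: 1, with 0 without a filter, 0 with the replicate block, 2 by median-of-ratios scaling, 0 after length removal, 4 at 0.05, and 0 to 1 with a library left out (0 without replicate 1 or 2 of the group without rescue or 1 or 3 of that with it). The siRNA by rescue interaction at day 0: 0, with 2 by median-of-ratios scaling, 2 after length removal and 1 at 0.05. The siRNA by day interaction with rescue: 1, with 2 by median-of-ratios scaling, 4 after length removal and 2 at 0.05. The RA by rescue interaction: 8, with 4 by median-of-ratios scaling, 0 after length removal and 3 (without day 0 si-CTL replicate 1) to 8, with 4 without replicate 3 of day 0 with rescue and 5 without replicate 2 of day 4 without rescue or replicate 1 with it. The replicate block changed no other count by over 1.5 times. Reversals among these were Dnmt3l at day 4 without rescue (-0.058 by median-of-ratios scaling), Uhrf1 there (-0.0042 after length removal), Tet3 with RA in si-CTL (0.23 after length removal, 0.019 without day 0 si-CTL replicate 1, -0.17 to 0.019 over the libraries left out) and the RA by rescue interaction of Dnmt3a (-0.071 after length removal). Over all 144 differences, those that never passed included, removal of the length trend changed the sign of 13, of which 1 had passed before and 1 passed after, and median-of-ratios scaling that of 5, none of which passed. The cause was not tested. Depth is unknown, and 3 libraries a group limit the precision.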
